A study of Rattus norvegicus with 4 samples.

Results

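The actin-binding and cortical cytoskeleton genes described here are 10 genes of the rat hippocampal CA3 area: Flnc, Flna, Actn1, Tpm1, Tpm4, Myl9, Tagln2, Cnn3, Msn and Lmna. They were listed by symbol, out of 14217 genes that had a probe set with 1 gene symbol in the platform annotation. A probe set is the group of short probes that reports 1 transcript on an Affymetrix array. Together the 10 genes had 21 probe sets, and the brightest one by mean over the arrays stands for its gene. All 10 passed the filter on dim genes, a mean intensity above 62.75, as did 9489 genes in all. All 10 would also have passed on the mean of the NAP and PBS arrays alone, so none passed the filter only through a high value with kainic acid. The 10 genes were chosen with earlier results of these data known, so their counts below do not support their own direction.

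RNA came from Sprague-Dawley rats, from the CA3 area per the study's design text (the treatment protocol speaks of hippocampi), 24 h after injection into the hippocampus of 1 of 4 solutions, with 1 array each. The KA+NAP rats received kainic acid (KA, an excitotoxin that activates kainate-type glutamate receptors) and NAP, a peptide taken from the protein ADNP and studied as a neuroprotectant, the KA rats received KA alone, the NAP rats the peptide alone, and the PBS rats the vehicle. The labels do not give the age of the rats or say whether an array holds 1 animal or a pool. Since each group is a single array, the spread between animals is not measured, no test between groups was made, and a difference of at least 2-fold is used as a fixed rule of size. Values are MAS5 signal intensities, and differences are on the log2(intensity + 10) scale, where 1 is 2-fold.

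Actin filaments under the plasma membrane give a cell its shape, and they are bundled by crosslinkers, stabilised by tropomyosins, pulled by myosin II and tied to the membrane by ERM proteins (ezrin, radixin and moesin). In the injured brain, astrocytes that become reactive and microglia that change shape remodel this cortex, and vascular smooth muscle uses several of the same proteins for contraction. The A-type lamins made by Lmna are nuclear filaments, not actin-binding proteins, and they are linked to the actin cytoskeleton through the nuclear envelope.

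The arrays were on one scale, with a trimmed mean intensity of 250.1 on each and medians over all probe sets of 65 for KA+NAP, 61 for KA, 61 for NAP and 58 for PBS. Genes known from CA3 and other hippocampal neurons gave signal on all arrays, with intensities from 191 to 407 for Grik4, a kainate receptor subunit gene, and from 598 to 1229 for Neurod1. The amplification favours 3′ ends of transcripts, and for beta-actin the control probe set at the 3′ end exceeded that at the 5′ end by a ratio of 15.5 with KA+NAP, 11.4 with KA, 7.92 with NAP and 14.1 with PBS. For the other control, Gapdh, the ratio was 1.56 with KA+NAP, 1.31 with KA, 1.40 with NAP and 1.45 with PBS.

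KA was set against PBS to describe the toxin alone, and KA+NAP against NAP to describe it in rats that also had the peptide. These differences share no array. Where a pair of KA differences is given, KA minus PBS comes before KA+NAP minus NAP. Comparing KA with PBS, 7 of the 10 genes were at least 2-fold higher, where 4.91% of all genes past the filter were, and none was at least 2-fold lower (2.39% of all genes). With the peptide, 6 of 10 were at least 2-fold higher in KA+NAP than in NAP, against 5.66% of all genes, and again none was lower by that rule (2.41%). The same 6 genes, Flnc, Flna, Tpm4, Tagln2, Msn and Lmna, were at least 2-fold higher in both, a position held by 297 genes or 3.13% of those past the filter. The median difference of the 10 genes was 1.58 in KA minus PBS and 1.82 in KA+NAP minus NAP, against 0.02 and 0.03 over all genes. In 9 of the 10 genes, all but Myl9, both arrays with KA were above both without it, as they were in 32.3% of all genes past the filter. In bulk tissue, a larger number of cells that express a gene and more RNA per cell cannot be told apart.

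**Figure D1:**
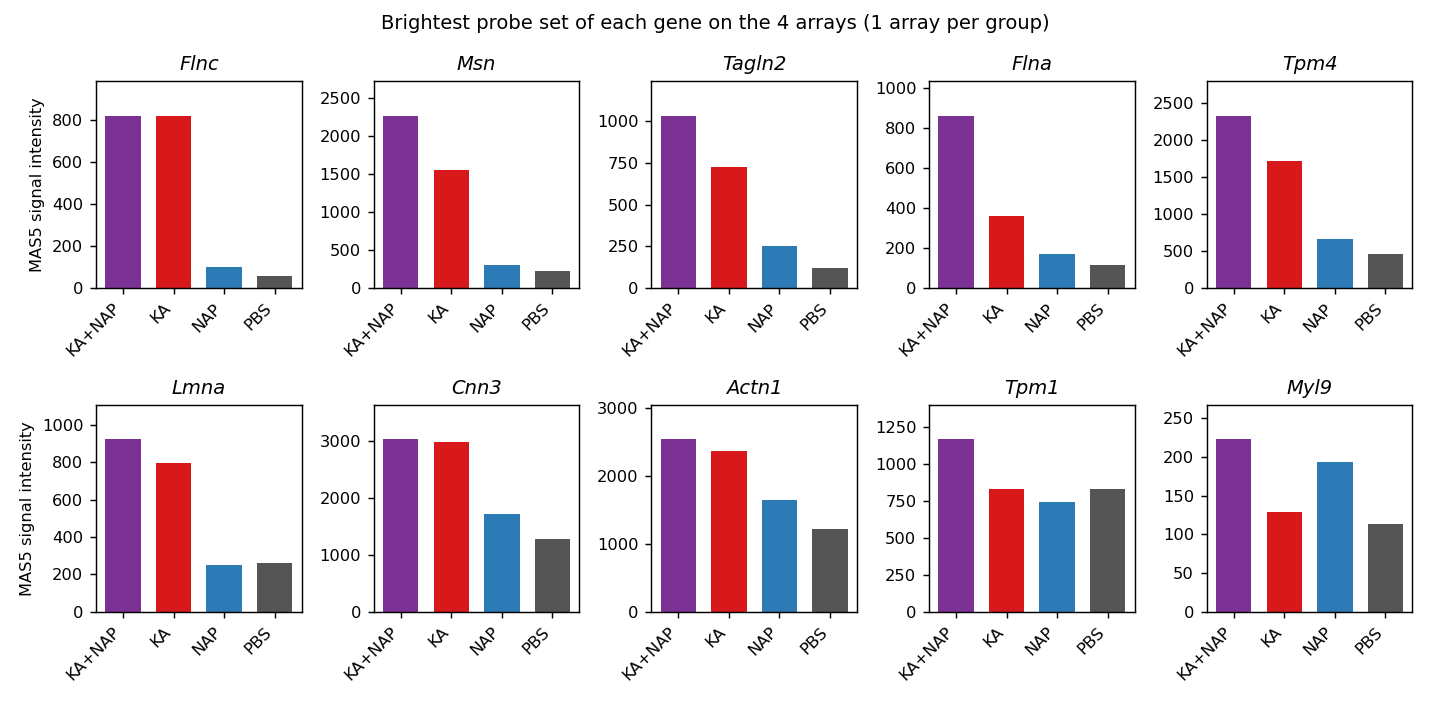
MAS5 signal intensity (vertical axes from 0, one scale per gene) of the brightest probe set of each gene on the KA+NAP, KA, NAP and PBS arrays, 1 bar per array. Genes run from the highest average KA difference, Flnc, to the lowest, Myl9, and in all but Myl9 both arrays with KA stand above both arrays without it (by 1 unit for Tpm1).

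Promoters are shown for the genes whose windows held one of the motifs marked below: 4 of the 6 genes that were 2-fold higher in both differences, and Tpm1, which was in neither. Windows run from 250 bases before to 50 after the gene start, from RefSeq on build GRCr8, in the direction of the gene. Of the 10 genes, 9 matched the table, and Myl9 had no entry. Capitals mark CATTCC or its reverse complement GGAATG (the core of the site for TEAD factors) and TGANTCA (the AP-1 site), which do not overlap here.
Flnc, chr4:58999297-58999596, plus strand: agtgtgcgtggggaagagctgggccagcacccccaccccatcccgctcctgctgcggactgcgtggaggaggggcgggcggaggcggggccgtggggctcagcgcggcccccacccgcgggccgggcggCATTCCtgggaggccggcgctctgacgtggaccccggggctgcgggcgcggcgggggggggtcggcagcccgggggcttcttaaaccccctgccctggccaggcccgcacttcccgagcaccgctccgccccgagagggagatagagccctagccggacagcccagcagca
Flna, chrX:157182294-157182593, minus strand: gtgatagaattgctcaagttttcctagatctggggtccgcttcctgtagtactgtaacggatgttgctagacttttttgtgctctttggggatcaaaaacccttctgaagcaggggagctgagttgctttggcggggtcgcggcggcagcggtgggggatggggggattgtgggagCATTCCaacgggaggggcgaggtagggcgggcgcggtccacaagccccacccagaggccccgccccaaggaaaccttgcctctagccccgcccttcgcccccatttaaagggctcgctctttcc
Tagln2, chr13:87499158-87499457, plus strand: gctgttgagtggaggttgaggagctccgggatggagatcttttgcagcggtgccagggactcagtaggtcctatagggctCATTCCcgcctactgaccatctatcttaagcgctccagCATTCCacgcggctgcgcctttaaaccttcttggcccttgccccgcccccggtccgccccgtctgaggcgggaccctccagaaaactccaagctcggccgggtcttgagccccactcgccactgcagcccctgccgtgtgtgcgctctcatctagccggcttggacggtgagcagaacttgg
Lmna, chr2:176258186-176258485, minus strand: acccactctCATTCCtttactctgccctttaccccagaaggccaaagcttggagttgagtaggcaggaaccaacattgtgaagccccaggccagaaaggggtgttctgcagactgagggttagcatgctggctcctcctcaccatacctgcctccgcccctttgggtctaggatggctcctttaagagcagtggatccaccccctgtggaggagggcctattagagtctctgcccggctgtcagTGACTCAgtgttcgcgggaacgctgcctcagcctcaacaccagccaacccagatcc
Tpm1, chr8:76543366-76543665, minus strand: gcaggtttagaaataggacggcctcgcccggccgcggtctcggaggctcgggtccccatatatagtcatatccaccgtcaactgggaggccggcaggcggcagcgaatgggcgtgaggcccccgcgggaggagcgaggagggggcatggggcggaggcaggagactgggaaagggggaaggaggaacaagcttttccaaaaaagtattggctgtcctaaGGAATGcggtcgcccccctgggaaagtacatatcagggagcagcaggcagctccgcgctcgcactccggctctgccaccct

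The TEAD core was found on either strand in 5 of the 9 windows, those printed, and in 14.2% of the 33469 windows in the table. Tagln2 held it in 2 places, starting at bases 81 and 119 of its window, and Tpm1 held it without a 2-fold difference. The windows of Msn and Tpm4, which were high in both differences, held none. The AP-1 site was found in 1 of 9, Lmna, where it starts at base 245, and in 7.33% of all windows. The CArG box, the binding site of serum response factor (SRF), was searched on both strands and was in 0 of 9 and in 1.64% of all windows. The GC box GGGCGG, searched on both strands, was in all 9 and in 33.1% of all windows, and the G and C content of the 9 ran from 57.3% (Lmna) to 77% (Flnc, Tpm4 and Cnn3). A match describes letters only, and no match in this window says nothing of sites elsewhere.

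The membrane linker Msn (moesin), which joins cortical actin to membrane proteins, had intensities of 2273 with KA+NAP, 1556 with KA, 302 with NAP and 218 with PBS. Both arrays with KA were at least 5.15 times both arrays without it. The differences were 2.78 in KA minus PBS and 2.87 in KA+NAP minus NAP, which ranked Msn 40 and 22 from the highest of 9489 genes. A dimmer Msn probe set, not past the filter, read 71 with KA+NAP, 88 with KA, 24 with NAP and 9 with PBS and differed by 2.37 and 1.25.

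Among the crosslinkers, Flnc (filamin C, the filamin best known from striated muscle) had intensities of 821 with KA+NAP, 820 with KA, 101 with NAP and 57 with PBS. The arrays with KA were level with each other and 8.12 times or more above the others. Flnc had the largest average KA difference of the 10 genes, with 3.63 in KA minus PBS (rank 14) and 2.90 in KA+NAP minus NAP (rank 21). Its second probe set, at 56 with KA+NAP, 76 with KA, 24 with NAP and 19 with PBS and not past the filter, differed by 1.57 and 0.96.

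Flna (filamin A, the widely expressed filamin that also anchors integrins) had intensities of 862 with KA+NAP, 360 with KA, 172 with NAP and 114 with PBS. It was the 1 gene of the 10 at least 2-fold apart between the arrays with KA, 2.39-fold higher in KA+NAP. Its differences were 1.58 in KA minus PBS and 2.26 in KA+NAP minus NAP.

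Actn1 (alpha-actinin 1, which bundles filaments in stress fibres and at adhesions) had intensities of 2535 with KA+NAP, 2368 with KA, 1648 with NAP and 1219 with PBS. The order of the arrays was that of Flnc, but the differences, 0.95 and 0.62, stayed under 2-fold. A dimmer probe set of Actn1 read 154 with KA+NAP, 146 with KA, 57 with NAP and 62 with PBS and differed by 1.12 and 1.29, past 2-fold in both.

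The tropomyosins, coiled proteins that lie along the filament, were divided. Tpm4 had intensities of 2335 with KA+NAP, 1721 with KA, 670 with NAP and 459 with PBS, and differences of 1.88 and 1.79. Its second probe set, at 512 with KA+NAP, 430 with KA, 152 with NAP and 109 with PBS, gave 1.89 and 1.69, so both sets read alike.

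Tpm1 had intensities of 1168 with KA+NAP, 833 with KA, 744 with NAP and 832 with PBS on its brightest probe set. KA and PBS were level there, with a difference of 0.00, and KA+NAP minus NAP was 0.64. Tpm1 makes many isoforms by alternative promoters and splicing, and its 7 probe sets, 1 of them not past the filter, did not agree. Over the 6 sets past the filter, KA minus PBS ran from −0.27 to 0.44 and KA+NAP minus NAP from −0.34 to 1.45. The dim set, at 34 with KA+NAP, 21 with KA, 2 with NAP and 12 with PBS, gave 0.49 and 1.87. One set, whose name marks possible cross-hybridisation, read 787 with KA+NAP, 430 with KA, 282 with NAP and 315 with PBS, and its KA+NAP minus NAP was 1.45. The probe sequences were not used here, so no probe set was assigned to an isoform.

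**Figure D2:**
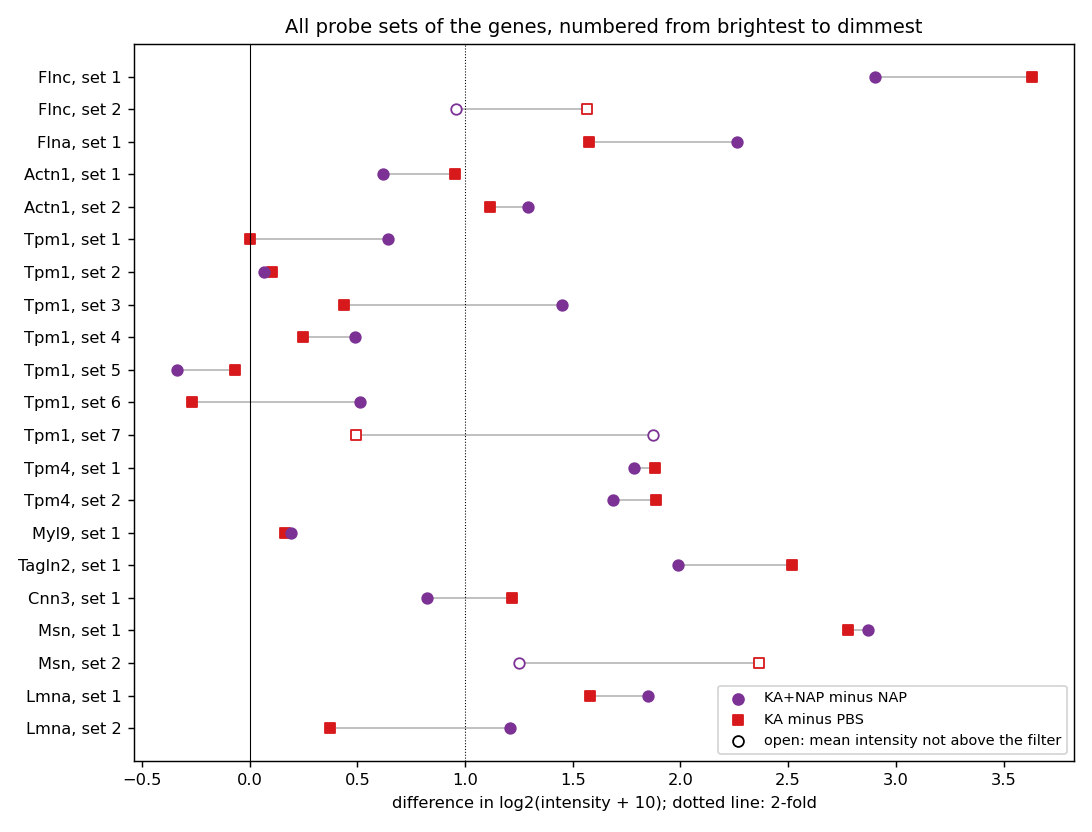
Differences in log2(intensity + 10) for all 21 probe sets of the 10 genes, KA+NAP minus NAP as circles and KA minus PBS as squares, with open symbols for the 3 sets not past the filter. Both Tpm4 sets lie between 1.69 and 1.89, while the 6 Tpm1 sets past the filter spread from −0.34 to 1.45.

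Myl9, the regulatory light chain of smooth muscle and non-muscle myosin II, had a pattern of its own: 223 with KA+NAP, 129 with KA, 194 with NAP and 114 with PBS. Its higher arrays were those with the peptide, not those with KA. The KA differences were 0.16 and 0.19, and the NAP differences 0.75 in KA+NAP minus KA and 0.72 in NAP minus PBS. The summed intensities of 8 endothelial markers followed the same order of arrays, at 3839 with KA+NAP, 2693 with KA, 3666 with NAP and 2566 with PBS. Of the 8 genes, Tek and Vwf had that order singly and the other 6 did not. The haemoglobin gene Hbb had it too, at 1549 with KA+NAP, 186 with KA, 1430 with NAP and 5 with PBS. Smooth muscle and pericyte markers summed over 11 genes (6 past the filter) to 2608 with KA+NAP, 1683 with KA, 976 with NAP and 821 with PBS. Without Tagln, the 10 others summed to 776 with KA+NAP, 635 with KA, 668 with NAP and 685 with PBS, close on all arrays. The genes of this list differed in direction: of the 6 past the filter, 2 lay above 0 in both KA differences, Tagln and Abcc9, and 2 below. Abcc9 differed by 0.55 and 1.28, and Cnn1, not past the filter, by 1.56 and 1.66. Pdgfrb, also not past it, read 58 with KA+NAP, 34 with KA, 24 with NAP and 30 with PBS. Of the contractile genes, Acta2 read 60 with KA+NAP, 98 with KA, 69 with NAP and 78 with PBS and Myh11 read 97 with KA+NAP, 65 with KA, 196 with NAP and 116 with PBS. No marker was at 0. The part of vascular or blood content in the Myl9 values was not tested.

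Tagln2 (transgelin 2, an actin-bundling protein of the calponin family) had intensities of 1034 with KA+NAP, 723 with KA, 253 with NAP and 118 with PBS. All 4 arrays stood apart in that order. The KA differences were 2.52 and 1.99, ranks 57 and 84. Its NAP minus PBS was 1.04, the 1 value of the 10 genes at 2-fold in that comparison, and it was 0.85 with a pseudocount of 50 and just under 1 with either other scaling (0.9986 with arrays centred on the median and 0.986 with quantile normalization).

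Cnn3 (calponin 3, which binds actin and restrains myosin activity) had intensities of 3025 with KA+NAP, 2978 with KA, 1707 with NAP and 1275 with PBS. The KA arrays were level, as for Flnc. KA minus PBS was 1.22, past 2-fold, and KA+NAP minus NAP was 0.82, short of it.

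Lmna, whose products lamin A and C stiffen the nucleus, had intensities of 923 with KA+NAP, 797 with KA, 249 with NAP and 260 with PBS. The arrays with KA were at least 3.07 times those without, and the arrays with and without the peptide were close within each pair. The KA differences were 1.58 and 1.85. A dimmer Lmna probe set, at 110 with KA+NAP, 73 with KA, 42 with NAP and 54 with PBS, gave 0.38 and 1.21, so the 2-fold step in KA minus PBS rests on the brighter set.

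**Figure D3:**
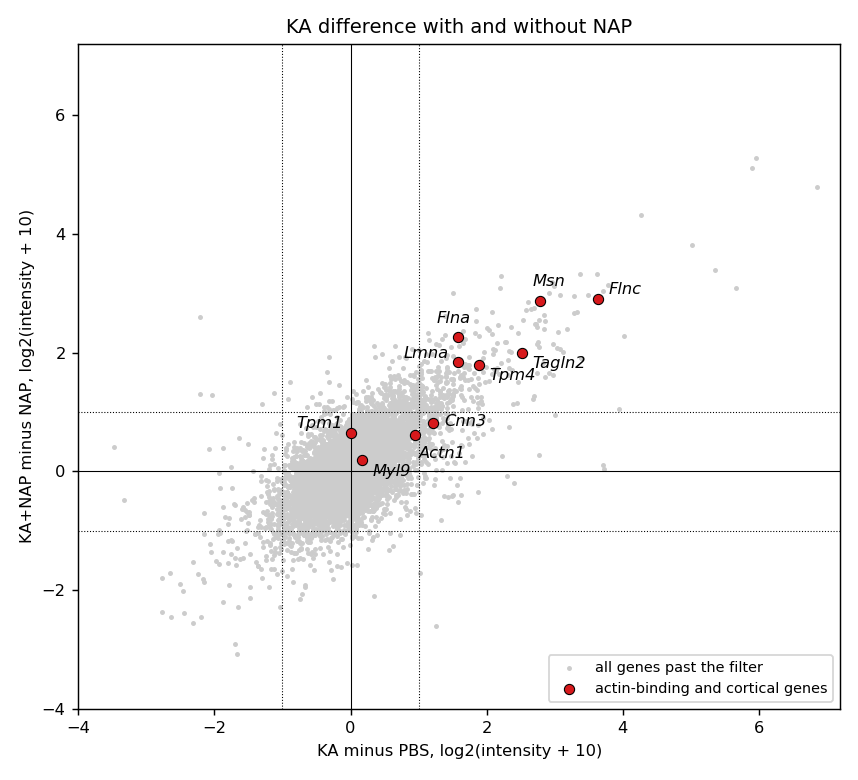
KA minus PBS (horizontal) against KA+NAP minus NAP (vertical) in log2(intensity + 10), with 1 grey point for each of the 9489 genes past the filter, the 10 genes in red and dotted lines at 2-fold. Of the 10 genes, 6 lie beyond 2-fold on both axes, Cnn3 on one, and Actn1, Tpm1 and Myl9 on neither.

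How the KA difference changed with the peptide was read by subtracting KA minus PBS from KA+NAP minus NAP. Its median over the 10 genes was −0.04, against 0.0015 over all genes, and 5 of 10 lay below 0, where 49.8% of all genes did. None was at 2-fold either way, against 3.52% of all genes. Flna had the highest value, 0.68, followed by Tpm1 at 0.64. Flnc had the lowest, −0.73, followed by Tagln2 at −0.53 and Cnn3 at −0.40. For these 3 genes the KA+NAP and KA arrays were closer to each other than NAP and PBS were.

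The peptide was also read directly, as KA+NAP minus KA with the toxin and NAP minus PBS without it. These share no array with each other, but each shares arrays with the KA differences. Of the 10 genes, 1, Flna at 1.24, was at least 2-fold higher in KA+NAP minus KA, against 1.52% of all genes, and none was 2-fold lower (0.601% of all genes). In NAP minus PBS, 1, Tagln2, was at least 2-fold higher, against 1.05%, and none lower (0.242%). All 10 lay above 0 in KA+NAP minus KA, though Flnc at 0.00 and Cnn3 at 0.02 were level, and 8 of 10 lay above 0 in NAP minus PBS. Over all genes, 53.8% and 54.0% lay above 0. The medians of the 10 genes were 0.46 and 0.49, and those of all genes 0.03 and 0.02. With arrays centred on the median, Flnc and Cnn3 fell below 0 in KA+NAP minus KA, at −0.04 and −0.02. On the intensities as deposited, the dimmer probe sets of Flnc and Msn, not past the filter, were at −0.38 and −0.27 there.

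**Figure D4:**
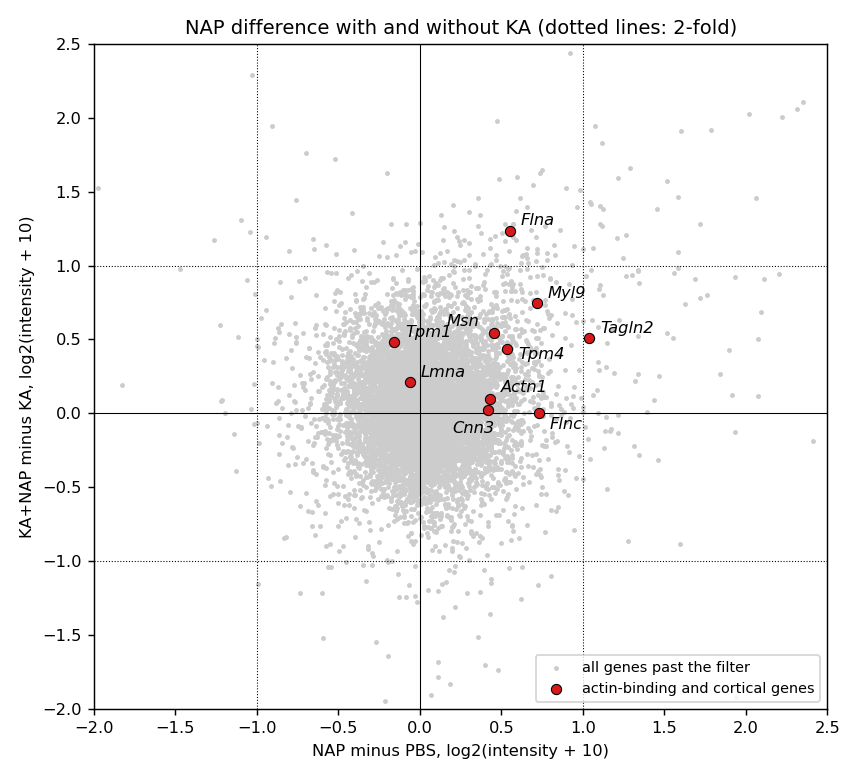
NAP minus PBS (horizontal) against KA+NAP minus KA (vertical) in log2(intensity + 10), with grey points for all genes past the filter (12 lie outside the axes), the 10 genes in red and dotted lines at 2-fold. The genes sit right of or above 0 but inside the 2-fold lines, except Flna above the upper line and Tagln2 just right of the right one.

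Markers of several cell types were read in the same comparisons, and the lists differed from each other. Microglia and macrophage markers (10 of 10 on the array, 9 past the filter) summed to 5090 with KA+NAP, 2480 with KA, 2719 with NAP and 2261 with PBS. Their median KA+NAP minus KA was 1.01, with 5 of 9 at least 2-fold higher (1.52% of all genes). Their median KA differences were 0.14 and 0.97, with 3 of 9 at least 2-fold higher in both (3.13%). On the mean of the NAP and PBS arrays alone, 8 would have passed the filter, without Cd68, which read 69 with NAP and 24 with PBS. Astrocyte markers (9 of 9) summed to 33867 with KA+NAP, 30441 with KA, 31474 with NAP and 29297 with PBS, and their median KA differences were −0.01 and −0.12. Within this list the genes were divided. Gfap, the brightest of the list, read 9776 with KA+NAP, 8147 with KA, 8065 with NAP and 5744 with PBS. Its KA differences were 0.50 and 0.28, under 2-fold, and its NAP minus PBS was 0.49. Vim, the intermediate filament gene raised in reactive astrocytes, read 5255 with KA+NAP, 3688 with KA, 1588 with NAP and 851 with PBS, and Cd44 was the other gene at least 2-fold higher in both KA differences (3.13% of all genes). Of the 9, 5 lay below 0 in both, among them Aldoc at −1.07 and −0.89, and Aldh1l1, which read 188 with KA+NAP, 181 with KA, 386 with NAP and 369 with PBS. Meningeal and fibroblast markers (9 of 9, 8 past the filter) summed to 2038 with KA+NAP, 1577 with KA, 3376 with NAP and 1986 with PBS, highest on the NAP array, with 5 of 8 at least 2-fold higher in NAP minus PBS (1.05% of all genes). Neuronal markers (9 of 9) summed to 20938 with KA+NAP, 20319 with KA, 23430 with NAP and 26548 with PBS, lower on both arrays with KA. Their median KA differences were −0.39 and −0.50. None was at least 2-fold lower in KA minus PBS (2.39% of all genes), and 2 were in KA+NAP minus NAP (2.41%). Not all were lower, with Camk2a at 0.14 and 0.33, Map2 at −0.23 and 0.16 and Syt1 at 0.01 and −1.02. No gene of these lists was at 0 on any array. The part of these cells in the differences of the 10 genes was not tested.

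Close relatives of the 10 genes were read for comparison, 13 genes of the same protein families that passed the filter (no other filamin was analysed here), named for their family and not for their values. Of these, 4 were at least 2-fold higher in both KA differences, against 3.13% of all genes, 9 lay above 0 in both, against 37.9%, and none was 2-fold lower. In several families the differences were unequal. Tagln (transgelin, also called SM22), known from smooth muscle, read 1832 with KA+NAP, 1048 with KA, 308 with NAP and 136 with PBS, with KA differences of 2.86 and 2.53. Tagln3, the transgelin of neurons, read 2584 with KA+NAP, 2835 with KA, 3093 with NAP and 3441 with PBS and differed by −0.28 and −0.26.

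The calponin Cnn2 read 1339 with KA+NAP, 714 with KA, 249 with NAP and 166 with PBS, and its differences of 2.04 and 2.38 exceeded those of Cnn3. Of the other ERM genes, Ezr (ezrin) differed by 1.31 and 1.35, and Rdx (radixin) by 0.76 and 1.06. Msn was the ERM gene with the largest values in both. The light chain gene Myl12a, whose product serves non-muscle myosin II, read 3141 with KA+NAP, 2377 with KA, 1072 with NAP and 1014 with PBS and differed by 1.22 and 1.54, while Myl12b differed by −0.30 and −0.22. Near-identical relatives can share probes, which was not examined here.

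The alpha-actinin gene Actn4 differed by 0.71 and 0.75, and Actn2, the muscle and synaptic form, by 0.03 and −0.31. Tpm3 differed by 0.30 and 0.82, and Tpm2 by 0.84 and −0.22 at intensities between 55 and 106. Among B-type lamins, Lmnb1 differed by 0.69 and 1.17, and Lmnb2 by 0.72 and 0.31.

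**Figure D5:**
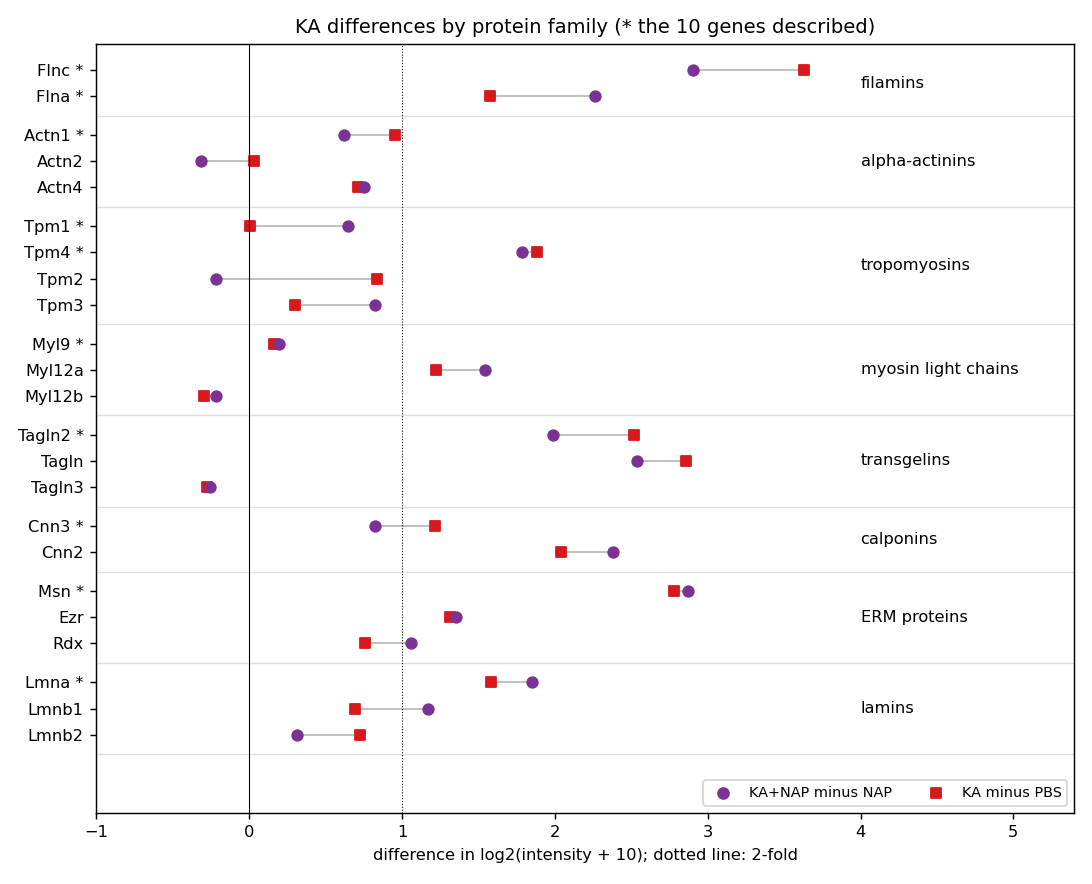
Differences in log2(intensity + 10) of the 10 genes (starred) and 13 relatives by protein family, KA+NAP minus NAP as circles and KA minus PBS as squares, with a dotted line at 2-fold. Tagln2 and Tagln lie beyond 2-fold on both measures and Tagln3 just below 0, and Myl12a lies beyond 2-fold where Myl9 and Myl12b lie near 0.

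A wider set of 133 actin cytoskeleton and nuclear envelope genes in 11 lists, without the 10 genes, held 123 genes on the array and 108 past the filter. It holds the 13 relatives above, so 4 of the 12 genes counted next as higher in both KA differences are relatives already described. Some of its genes (Tagln, Acta2, Cnn1, Myh11 and Cd44) are also on the marker lists. Of the 108, 15 were higher by 2-fold or more in KA minus PBS (4.91% of all genes), 20 in KA+NAP minus NAP (5.66%) and 12 in both (3.13%), and none was 2-fold lower in any of the 4 comparisons. Their medians were 0.06 and 0.17, closer to 0 than those of the 10 genes. In KA+NAP minus KA 3 were at least 2-fold higher (1.52% of all genes), and in NAP minus PBS 4 (1.05%). On the mean of the NAP and PBS arrays alone, 105 genes would have passed the filter. Fhl3 and Fermt3, both counted among the 12 and described below, would not.

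None of the 3 actin genes past the filter reached 2-fold in either KA difference. Of 6 actin genes listed, 4 were matched on the array, and Actb (beta-actin) was not among them. Its control probe sets did not agree. The middle one read 2620 with KA+NAP, 2252 with KA, 1894 with NAP and 1644 with PBS. The 3′ one read 7252 with KA+NAP, 5757 with KA, 4924 with NAP and 5806 with PBS. The 5′ one read 468 with KA+NAP, 507 with KA, 622 with NAP and 413 with PBS. Actg1 (cytoplasmic gamma-actin) read 8119 with KA+NAP, 7255 with KA, 9735 with NAP and 8338 with PBS, differences of −0.20 and −0.26, and Acta1 differed by 0.05 and −0.52. Of 7 other crosslinkers past the filter, 2 were at least 2-fold higher in both KA differences. Palld (palladin, a scaffold of stress fibres) read 388 with KA+NAP, 440 with KA, 78 with NAP and 83 with PBS and differed by 2.27 and 2.18, and Lcp1 (plastin of leukocytes) by 1.49 and 1.24. Of 5 tropomyosin and tropomodulin genes, 1 did so, Tmod3 (tropomodulin 3, which caps pointed ends) at 1.34 and 1.14, and of 10 myosin II genes 1, Myl12a. Of 3 calponins and transgelins, Tagln and Cnn2 did.

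Of 16 membrane linkers, 2 were at least 2-fold higher in both, Cd44, a hyaluronan receptor that binds ERM proteins, at 3.72 and 3.04, and Ezr. None of 10 nuclear lamina and envelope genes was. The 2 largest of that list were Lmnb1 and Tmpo, a lamina-associated protein, at 0.73 and 0.92. Of 14 severing and capping genes, 1 was, Capg, a filament cap of macrophages, which read 516 with KA+NAP, 138 with KA, 92 with NAP and 37 with PBS and differed by 1.65 and 2.37. Of 16 Arp2/3, coronin and nucleator genes, 1 was, the Arp2/3 subunit gene Arpc1b, at 1.24 and 1.60.

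Of 22 focal adhesion genes, 2 were at least 2-fold higher in both, the LIM protein gene Fhl3 at 1.72 and 1.54 and Fermt3 (kindlin 3, of blood cells) at 1.86 and 1.37. Both passed the filter only through the arrays with KA. Fhl3 read 211 with KA+NAP, 168 with KA, 66 with NAP and 44 with PBS. Fermt3 read 184 with KA+NAP, 81 with KA, 65 with NAP and 15 with PBS. On the mean of the NAP and PBS arrays alone, 20 genes of this list would have passed. In NAP minus PBS, the leukocyte genes Capg, Fermt3 and Lcp1, picked for this after their values were seen, were at 1.12, 1.58 and 1.10. The PBS intensities of Capg and Fermt3 were low, at 37 and 15, while Lcp1 read 576 with NAP and 264 with PBS. Tagln was the other gene of the wider set at least 2-fold higher there, at 1.12. Of the 9 microglia and macrophage markers past the filter, 1 was at least 2-fold higher in NAP minus PBS (1.05% of all genes). The median of these markers there was 0.61. The part of these cells was not tested. The transcription factor gene Srf, whose product drives many actin genes, read 578 with KA+NAP, 532 with KA, 476 with NAP and 546 with PBS and differed by −0.04 and 0.27, and its cofactor gene Mrtfa by 0.20 and −0.05.

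Likeness was measured as the distance between profiles of log2(intensity + 10) over the 4 arrays, each centred on its own mean. Nearest to the median profile of the 10 genes were Trip6, Ppp2r1b, Cd63, Fhl3 and Plod3, at distances from 0.0995 to 0.142. Nearest to Flnc were Emp1, Tcim, Cd44, Tnc and Tnfrsf12a, at 0.252 to 0.397. Emp1 read 1202 with KA+NAP, 1013 with KA, 146 with NAP and 95 with PBS. All profiles come from the same 4 arrays, so a small distance is a description only.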

How the data were processed

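Expression was measured on 4 Affymetrix arrays, 1 per group. Per the labels' protocols, 500 ng of total RNA per sample was amplified in 2 cycles to biotin-labelled cRNA. Per the submitters' processing notes, the deposited signal intensities were made with MAS5. Its version and settings were not stated there. The authors' intensities were whole numbers on a linear scale and already scaled between arrays, and they were used as deposited.

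Of 31099 probe sets, 20826 had 1 gene symbol, 436 had several, 9780 were not listed in the platform annotation and 57 were controls. Symbols of 20758 were taken from the GRCr8 gene table through Entrez identifiers. Values were turned into log2(intensity + 10). Genes needed a mean intensity above 62.75, the median over probe sets other than controls. Differences were formed between single arrays, so their precision is limited by the number of arrays and no test was made. The code was tested on simulated data.

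The genes, lists and motifs were chosen with earlier results of these data known, so no list supports its own direction. All 10 genes were named in each comparison. From each wider list, genes at least 2-fold apart in one direction in both KA differences were named (at most 4), or otherwise the 2 largest, together with the 5 nearest profiles. Relatives and markers were named by family or cell type. The alternatives were pseudocounts of 1 and 50, other scaling, other filters, other probe set choices and a 1.5-fold rule. Python 3.11.15, pandas 2.3.3 and numpy 2.4.6 were used.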

Additional observations from a re-analysis of the deposited data

Results flagged for a closer look

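The NAP difference of Tpm1 lay on opposite sides of 0 with and without KA, at 0.48 in KA+NAP minus KA and −0.16 in NAP minus PBS, which are 0.64 apart. The same held for Lmna, at 0.21 and −0.06, which are 0.27 apart. Each value is a difference of 2 arrays, none reached 2-fold, and the difference between them was not tested. They come from the brightest probe set of each gene, and the Tpm1 sets did not agree. Over its 6 sets past the filter, KA+NAP minus KA ran from −0.40 to 0.86 and NAP minus PBS from −0.40 to 0.06.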

How the results depend on the processing

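The counts of the 10 genes at 2-fold in KA minus PBS and KA+NAP minus NAP stayed within 1.5 times of 7 and 6 under every alternative run (8 and 9 with a 1.5-fold rule, which 12.4% and 13.8% of all genes pass), and the medians of the 4 comparisons stayed within 1.5 times of their values. With the mean over probe sets, the 7 in KA minus PBS gained Actn1 (1.03) and lost Lmna (0.98). With the dimmest probe set past the filter, Actn1 was at 1.12 and 1.29 in the KA differences and Lmna at 0.38 in KA minus PBS. The count of 1 gene in NAP minus PBS was 0 with a pseudocount of 50 and with either other scaling, and 3 with a 1.5-fold rule (3.96% of all genes). That rule gave 2 genes in KA+NAP minus KA (6.53%). The median change of the KA difference with NAP, −0.04, was −0.018 with a pseudocount of 50, −0.0057 with quantile normalization, −0.098 with the filter at the 75th percentile (which leaves out Myl9) and 0.059 with the dimmest probe set. The causes of these shifts were not tested. Of 316 single values under alternatives, 308 kept their side of 2-fold, 5 dropped below it and 3 passed it. Many of the 308 could not have changed. A change of filter leaves a gene's own value as it was. The choice of probe set does so for genes with only 1 probe set past the filter. No paired analysis was possible because each group had 1 array. How far each signal stood above background was not examined.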

Other observations

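The membrane skeleton, built of spectrins tied by ankyrins, 4.1 proteins and adducins, lay for the most part on the other side of 0 from the 10 genes. Of its 10 genes past the filter, grouped after their values were seen, 8 lay below 0 in KA minus PBS and 9 in KA+NAP minus NAP, where 47.2% and 47.3% of all genes did, and none reached 2-fold. Their medians were −0.38 and −0.22. Above 0 were Epb41, at 0.51 in KA minus PBS and 0.33 in KA+NAP minus NAP, and Add1, at 0.08 in KA minus PBS. The lowest was Epb41l3, a 4.1 protein gene, which read 772 with KA+NAP, 766 with KA, 1425 with NAP and 1488 with PBS, differences of −0.88 in KA+NAP minus NAP and −0.95 in KA minus PBS. The spectrin gene Sptan1 read 4175 with KA+NAP, 3901 with KA, 5367 with NAP and 5373 with PBS. Summed neuronal markers were also lower on both arrays with KA, though not every gene of that list was. The part of neurons was not tested.

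A pair of other actin genes, picked after their values were seen, were also lower on both arrays with KA. Wasf1, an Arp2/3 activator of brain, read 2805 with KA+NAP, 2342 with KA, 3683 with NAP and 4593 with PBS. Cap2, which binds actin monomers, read 539 with KA+NAP, 548 with KA, 940 with NAP and 1038 with PBS. Neither reached 2-fold on the log2(intensity + 10) scale.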
